A study of Mus musculus with 9 samples.

Results

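The genes described here make ribosomes or build the nucleolus, and they were followed across 3 myeloid populations of normal mouse bone marrow: neutrophils, Mac1+ cells and Mac1- cells. The set is a list of 50 gene symbols. Each gene was read from the probe sets that the platform annotation gives exactly 1 gene symbol, and where there were several, from the one that was brightest on average over 9 Affymetrix mouse expression arrays. Of the 50 genes, 48 were measured, among 18193 genes in all. Npm3 and Mrto4 were not analysed here.

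Every array held RNA from C57BL/6 mice of either sex, aged 4 to 10 weeks. Magnetic sorting first separated marrow by c-kit, the receptor of stem cell factor. The neutrophils were c-kit- cells with Gr1 and Mac1. The Mac1+ cells carried c-kit, Gr1 and Mac1, while the Mac1- cells carried c-kit and Gr1 with little or no Mac1, and both were gated against B220, TER119, CD3, CD4, CD8 and IL7Rα. Both c-kit+ populations are described as immature cells of myeloblast type from their cytology. Each population had 3 arrays. Whether the 3 came from different mice is unstated, and the p-values thus reflect only how far these arrays scatter, which may be technical variation.

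Ribosomes are assembled mainly in the nucleolus, where RNA polymerase I copies the ribosomal RNA genes into a long precursor. Small nucleolar ribonucleoproteins (snoRNPs) modify the precursor, the small subunit processome folds and cleaves its first part, and a separate series of factors shapes the large subunit. Early myeloid precursors divide and have visible nucleoli, whereas neutrophils have left the cell cycle and have a condensed, lobed nucleus.

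The median intensity was 61.8 on neutrophil array 1 and 39.1 to 45.4 on the other arrays. Arrays of the same population correlated at 0.924 to 0.994 over all genes. Neutrophil array 1 stood apart from the other neutrophil arrays on the second principal component, which held 9.40% of the variance (66.5, against -23.9 and -39.3). The sort antigens followed the labels. Kit, which encodes c-kit, had intensities of 94.9, 295 and 331 on the neutrophil arrays, 3336, 3176 and 3469.8 on the Mac1+ arrays and 2998, 3217 and 3228 on the Mac1- arrays. Itgam, which encodes the αM chain of Mac1, had intensities of 2027, 3553 and 3675 in neutrophils, 919.8, 823 and 695 in Mac1+ cells and 74.1, 69.2 and 71.7 in Mac1- cells. The summed intensity of 6 neutrophil markers was 65164 to 72445 in neutrophils, 32648 to 36273 in Mac1+ cells and 3178 to 3889 in Mac1- cells. Most of the Mac1+ sum was Camp and Ltf, with mean intensities of 14895 and 13366, against 12835 and 12318 in neutrophils. Mmp8, Mmp9, Cxcr2 and Csf3r had means of 133, 353, 204 and 5113 in Mac1+ cells. In neutrophils these were 13220, 12091, 6322 and 11137. That of 4 granule genes of promyelocytes (Mpo, Elane, Prtn3, Ctsg) was 1591 to 14212 in neutrophils, 59894 to 71848 in Mac1+ cells and 60186 to 69631 in Mac1- cells. Among lineages outside the gates, 5 measured erythroid markers summed to 159 to 506 in neutrophils, 45.8 to 88.6 in Mac1+ cells and 56.5 to 109 in Mac1- cells. The 3 measured T and NK cell markers summed to 25.3 to 31.4 in neutrophils, 33.1 to 51.6 in Mac1+ cells and 28.5 to 55.7 in Mac1- cells. The 5 B cell markers summed to 197 to 581 in neutrophils, 744 to 916 in Mac1+ cells and 1136 to 1377 in Mac1- cells, most of it Cd79b in the c-kit+ cells. The 4 eosinophil and basophil markers summed to 84.7 to 136 in neutrophils, 710 to 942 in Mac1+ cells and 966 to 1056 in Mac1- cells, most of it Mcpt8 in the c-kit+ cells. The 4 megakaryocyte markers summed to 403 to 613 in neutrophils, 242 to 297 in Mac1+ cells and 195 to 278 in Mac1- cells. The part of these cells in the differences of neutrophils was not tested. No marker was at 0.

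Almost the whole set was lower in neutrophils than in both c-kit+ populations. Against Mac1+ cells, 46 of 48 genes fell, Polr1a rose and Polr1b did not pass the test, at an adjusted p under 0.05. Over all genes, 28.5% were called lower and 20.0% higher in that comparison. The median difference of the 48 genes was -3.60 on the log2(intensity + 16) scale, a 12.2-fold lower value in neutrophils, while the median of all genes was 0.05. Against Mac1- cells 47 of 48 genes fell and Polr1a rose, where 30.2% of all genes were called lower and 22.8% higher. The median was then -4.17, which is 18.0-fold lower. On every neutrophil array 46 genes were below all Mac1+ arrays (31.0% of all genes were), and 47 were below all Mac1- arrays (32.7% of all genes). In such bulk samples, fewer cells of a type and less RNA per cell cannot be told apart.

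The size of the fall placed many of these genes among the most negative differences of all genes. Of the 500 genes with the most negative difference against Mac1+ cells, 21 belonged to the set, and 22 did so against Mac1- cells. Nop58 ranked 8th and Tsr1 18th from the bottom against Mac1+ cells. Against Mac1- cells Tsr1 ranked 4th and Nop58 6th. Falls of over 8-fold were found for 32 of the 48 genes against Mac1+ cells and for 37 against Mac1- cells. Of all 18193 genes, 1147 and 1471 fell that far. Between 17 and 21 of the 48 genes had intensities under 100 on a neutrophil array, and none did on any c-kit+ array. Of all genes, 51.0% to 54.5% were under 100 on a neutrophil array. On Mac1+ arrays 49.8% to 50.2% were, and on Mac1- arrays 48.7% to 48.9%. At such low intensities the added 16 understates the fold.

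**Figure D1:**
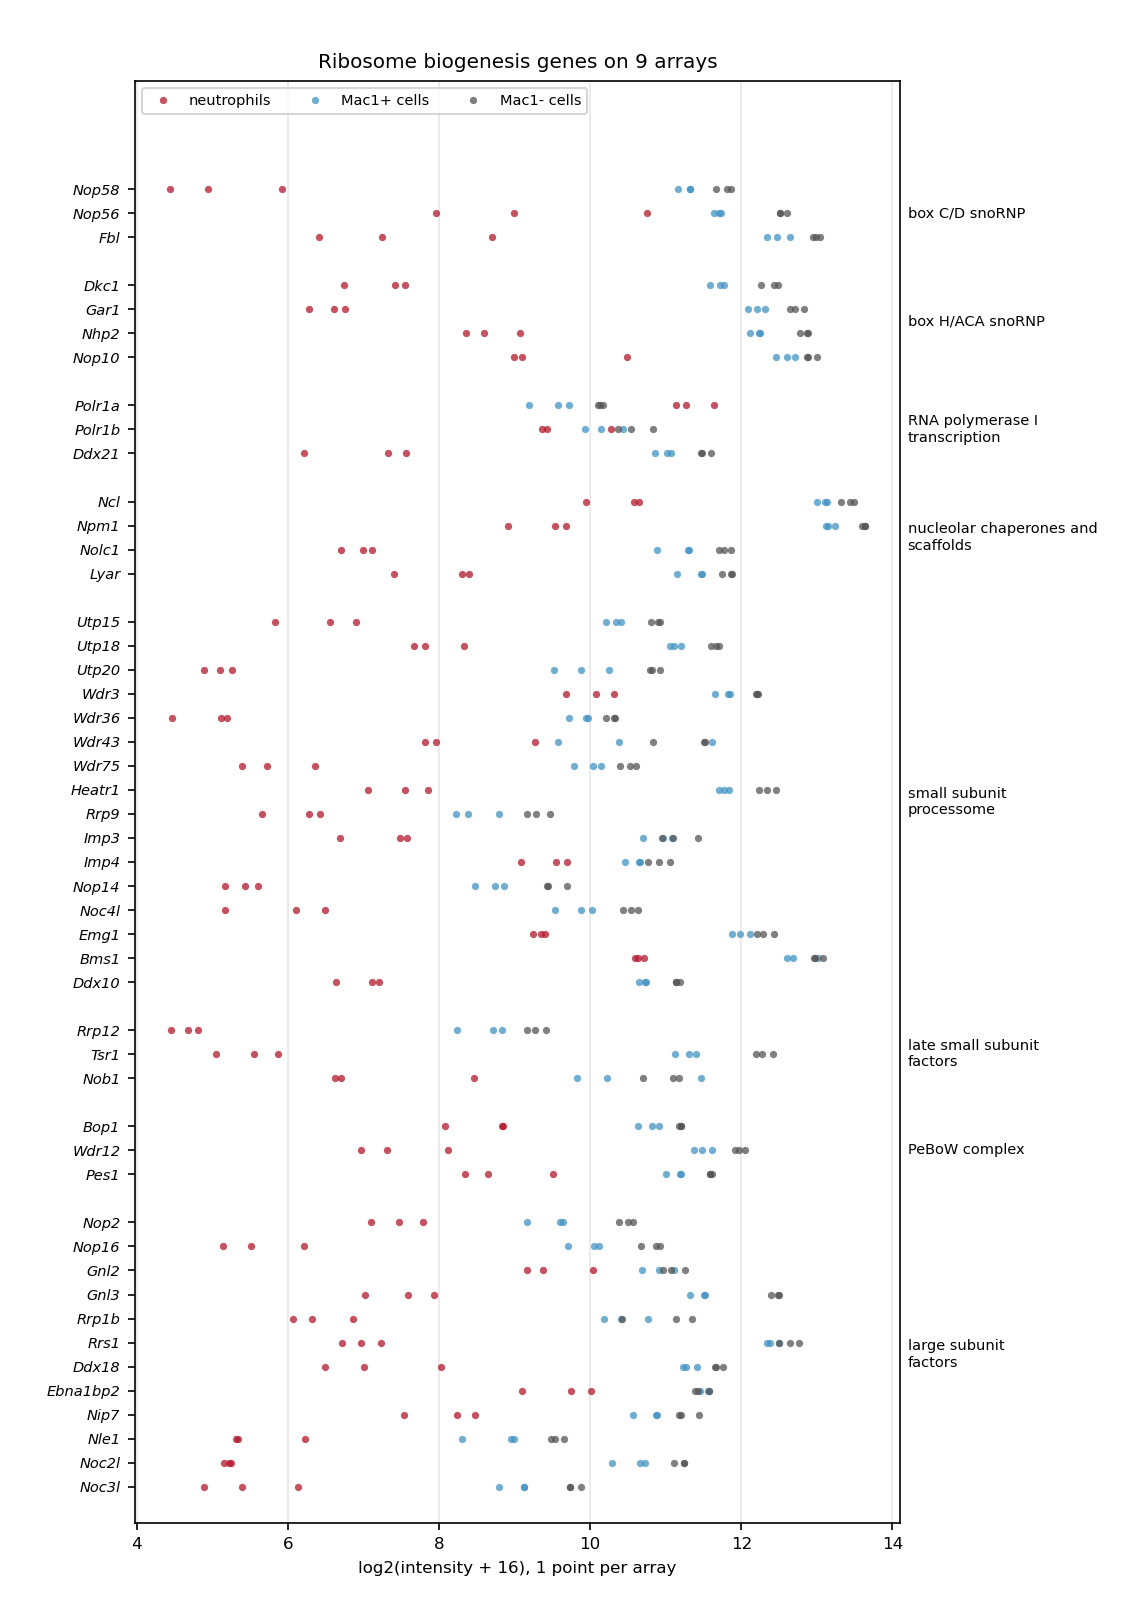
Levels of the 48 measured genes on each of 9 arrays, as log2(intensity + 16) on the horizontal axis with 1 point per array and the genes ordered by role down the page. Neutrophils lie to the left of both c-kit+ populations for all genes except Polr1a, where they lie to the right, and Polr1b, where they overlap Mac1+ cells.

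Since the genes moved together, the sequence before their starts was examined. A RefSeq entry for the promoter (build GRCm38.p6, 250 bases before to 50 bases after the start) was matched by symbol for 43 of the 50 genes; Rrs1, Wdr36, Npm1, Rrp12, Fbl, Gnl2 and Bop1 had no match. The canonical E-box CACGTG reads the same on both strands and is the site bound by MYC with MAX. It was present for 8 of 43 genes (18.6%), against 10.2% of measured genes with a window and 7.15% of all single windows. A gene was counted if any of its windows held the motif, so the share of single windows is in another unit. These 8 were Imp4, Nop2, Utp18, Pes1, Wdr43, Nle1, Tsr1 and Utp20. The ETS core CCGGAAG, searched on both strands, was present for 15 of 43 genes (34.9%), against 15.0% of measured genes and 8.86% of all single windows. The TATA motif TATAAA, also searched on both strands, was present for 2 of 43 genes (4.65%), against 11.5% of measured genes and 13.6% of all single windows. No motif contains another, and a match describes the sequence only, not binding. The 150 bases before the start are printed for the 3 genes with an E-box upstream of the start (in capitals) and for Polr1a, the gene that rose. Polr1a had no E-box in its window, and neither had most genes that fell, among them Nop58, Gar1 and Noc2l. The printed stretches lie at chr1:34439679-34439828 (plus strand) for Imp4, chr6:125131733-125131882 (plus strand) for Nop2, chr11:93885767-93885916 (minus strand) for Utp18 and chr6:71908903-71909052 (plus strand) for Polr1a.
Imp4: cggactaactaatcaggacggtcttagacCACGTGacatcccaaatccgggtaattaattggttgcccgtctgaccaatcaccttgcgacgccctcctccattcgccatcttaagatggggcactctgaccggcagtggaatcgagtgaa
Nop2: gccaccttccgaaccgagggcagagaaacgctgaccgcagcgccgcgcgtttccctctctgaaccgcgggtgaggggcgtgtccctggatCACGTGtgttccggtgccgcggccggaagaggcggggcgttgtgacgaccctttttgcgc
Utp18: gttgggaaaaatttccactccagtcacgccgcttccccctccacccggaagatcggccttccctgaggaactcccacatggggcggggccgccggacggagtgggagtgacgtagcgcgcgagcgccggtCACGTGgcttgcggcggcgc
Polr1a: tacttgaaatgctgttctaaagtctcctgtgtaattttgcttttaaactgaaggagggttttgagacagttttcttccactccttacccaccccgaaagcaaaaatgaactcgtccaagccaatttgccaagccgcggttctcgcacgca
The E-box began 121 bases before the start in Imp4, 60 bases before it in Nop2 and 20 bases before it in Utp18. The GC content of these 150 bases was 52.7% in Imp4, 68.0% in Nop2, 68.7% in Utp18 and 44.7% in Polr1a. The differences of the 8 genes with an E-box, neutrophils minus Mac1+ cells, were -5.78 for Tsr1, -4.80 for Utp20, -3.18 for Utp18, -3.12 for Nle1, -2.29 for Pes1, -2.18 for Wdr43, -2.02 for Nop2 and -1.15 for Imp4. No test was made of the E-box against these values.

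The 3 core proteins of the box C/D snoRNPs, which guide the methylation of ribosomal RNA, all fell in both neutrophil comparisons, by unlike amounts. Nop58, a scaffold of these particles, had intensities of 44.7, 14.8 and 5.69 in neutrophils, 2286, 2532 and 2542 in Mac1+ cells and 3224, 3695 and 3571 in Mac1- cells. The 3 populations did not overlap, and the difference of neutrophils from Mac1+ cells was -6.16 ± 0.32 (adjusted p = 5.27e-07), or 71.7-fold lower. Fbl, fibrillarin, the methyltransferase of the particle, had intensities of 401, 137 and 69.6 in neutrophils, 5173, 5644 and 6388 in Mac1+ cells and 8376, 7911 and 8099.8 in Mac1- cells. Its difference from Mac1+ cells was -5.03 ± 0.47 (adjusted p = 2e-05). Nop56, the partner scaffold of Nop58, had 1703, 492 and 232 in neutrophils, 3167, 3380.3 and 3308 in Mac1+ cells and 5816, 6191 and 5819 in Mac1- cells. Neutrophil array 1 was the highest of the neutrophil arrays for all 3 genes. For Nop56 that array was above the mean of the other two by 2.27 on the log2 scale, and its difference from Mac1+ cells was -2.46 ± 0.56 (adjusted p = 0.00573). All errors given here are standard errors of a difference between 3 and 3 arrays, with p-values adjusted over all 18193 genes.

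The box H/ACA snoRNPs, which convert uridines of ribosomal RNA to pseudouridines, showed the same direction in all 4 core proteins. Dkc1, dyskerin, the pseudouridine synthase, had intensities of 154, 172 and 90.7 in neutrophils, 3363, 3486 and 3063 in Mac1+ cells and 4892, 5704 and 5519 in Mac1- cells. Its difference from Mac1+ cells was -4.46 ± 0.21 (adjusted p = 3.4e-07). Gar1, a core protein of the same particle, had intensities of 91.9, 82.0 and 61.7 in neutrophils, 4351, 4700.0 and 5066 in Mac1+ cells and 6399.9, 7248 and 6679 in Mac1- cells. Gar1 was 50.3-fold lower in neutrophils than in Mac1+ cells, a difference of -5.65 ± 0.16 (adjusted p = 4.13e-08), and no populations overlapped. Nhp2, an RNA-binding core protein, had 520.0, 373 and 311 in neutrophils, 4409, 4858 and 4806 in Mac1+ cells and 7469, 7513 and 7015 in Mac1- cells, a difference of -3.52 ± 0.19 (adjusted p = 5.76e-07) from Mac1+ cells. Nop10, the smallest core protein, had 1417, 534 and 496 in neutrophils, 5632, 6219 and 6671 in Mac1+ cells and 8194, 7509 and 7435 in Mac1- cells, a difference of -3.06 ± 0.35 (adjusted p = 7.47e-05). As for the C/D proteins, the highest Nop10 value among neutrophils was on array 1.

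Polr1a was the only one of the 48 genes that rose. Polr1a, the largest subunit, had intensities of 3172, 2443 and 2231 in neutrophils, 570.5, 745 and 825 in Mac1+ cells and 1085, 1102 and 1134 in Mac1- cells. Every neutrophil array was above every other array, and Polr1a rose by 1.85 ± 0.19 against Mac1+ cells (adjusted p = 3.53e-05) and by 1.21 ± 0.19 against Mac1- cells (adjusted p = 0.000481). Polr1a has 5 probe sets, and the 3 others with a mean intensity of 100 or more also were higher in neutrophils than in Mac1+ cells, by 2.58, 1.75 and 2.77. That mean is over all arrays, so a probe set could reach 100 through the neutrophil arrays alone. The dimmest probe set differed by 0.09 and did not pass the test. Polr1b, the other large catalytic subunit, had 1229, 673 and 643 in neutrophils, 1373, 965 and 1112 in Mac1+ cells and 1308, 1810.0 and 1475 in Mac1- cells. Its neutrophil and Mac1+ arrays overlapped, and the difference of -0.48 ± 0.27 (adjusted p = 0.172) did not pass the test, while that from Mac1- cells did, at -0.89 ± 0.27 (adjusted p = 0.0202). Without neutrophil array 1 the difference of Polr1b from Mac1+ cells was -0.78 with an adjusted p of 0.00768. Ddx21, an RNA helicase that couples polymerase I transcription to processing, fell in both neutrophil comparisons. It had 172, 144 and 58.5 in neutrophils, 1846, 2136 and 2054 in Mac1+ cells and 2833, 3089 and 2824 in Mac1- cells, and its difference from Mac1+ cells was -3.95 ± 0.31 (adjusted p = 5.91e-06).

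**Figure D2:**
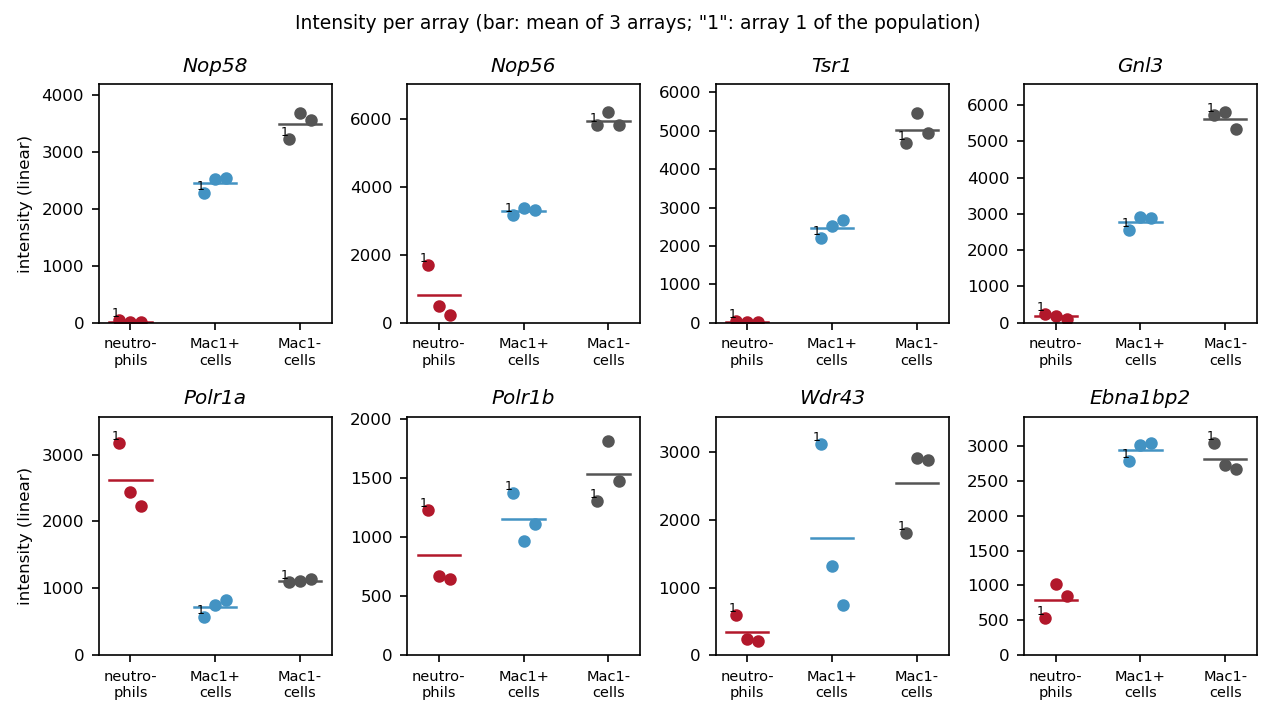
Intensity on a linear scale from 0 for 8 genes, with 1 point per array, a bar at the mean of 3 arrays and the numeral 1 beside array 1 of each population. Nop58 and Tsr1 lie near 0 in neutrophils, Polr1a is highest there, Polr1b and Wdr43 overlap between populations, and Nop56 has 1 high neutrophil array at 1703.

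The 4 measured nucleolar chaperones and scaffolds fell in both neutrophil comparisons. Npm1, nucleophosmin, a chaperone of the granular part of the nucleolus, had intensities of 729, 802 and 468 in neutrophils, 8922, 9067 and 9637 in Mac1+ cells and 12741, 12384 and 12747 in Mac1- cells. Its difference from Mac1+ cells was -3.79 ± 0.20 (adjusted p = 5.32e-07). Ncl, nucleolin, which binds nascent ribosomal RNA, had 969, 1589.6 and 1509.6 in neutrophils, 8154, 8789.7 and 8998 in Mac1+ cells and 10196, 11517 and 11102 in Mac1- cells, a difference of -2.69 ± 0.20 (adjusted p = 4.03e-06) from Mac1+ cells. Nolc1 (also known as Nopp140), which associates with snoRNPs, had 88.6, 123 and 112 in neutrophils, 1882, 2532 and 2499.7 in Mac1+ cells and 3711, 3478 and 3312 in Mac1- cells. Its difference from Mac1+ cells was -4.23 ± 0.17 (adjusted p = 1.61e-07). Lyar, a nucleolar zinc-finger protein, had 154, 321 and 299 in neutrophils, 2264, 2809 and 2841 in Mac1+ cells and 3709, 3756 and 3417 in Mac1- cells, a difference of -3.33 ± 0.26 (adjusted p = 5.45e-06).

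The 16 genes of the small subunit processome, the large particle on the precursor's first part, all fell in both neutrophil comparisons, with a median difference of -3.48 against Mac1+ cells and -4.01 against Mac1- cells. The spread among them was wide. Wdr36, a WD-repeat protein of the UTP-B module, had 18.8, 20.6 and 6.22 in neutrophils, 827, 991 and 974 in Mac1+ cells and 1273, 1264 and 1164 in Mac1- cells. Utp20, a large repeat protein, had 13.7, 22.5 and 18.3 in neutrophils, 719.6, 929.7 and 1202 in Mac1+ cells and 1928, 1786 and 1751 in Mac1- cells. These were the largest falls of the processome, with differences from Mac1+ cells of -4.95 ± 0.20 (adjusted p = 1.61e-07) for Wdr36 and -4.80 ± 0.20 (adjusted p = 1.69e-07) for Utp20. At the other end Imp4, which helps pair the U3 snoRNA with the precursor, had 814, 733 and 528 in neutrophils, 1394, 1589 and 1609 in Mac1+ cells and 2123, 1911 and 1721 in Mac1- cells. Its difference was -1.15 ± 0.19 (adjusted p = 0.000736). Imp3, its partner in the same step, had 175, 87.7 and 164 in neutrophils, 1651, 1979.6 and 2157 in Mac1+ cells and 2741, 1963 and 2179 in Mac1- cells, a difference of -3.66 ± 0.25 (adjusted p = 2.88e-06). No test was made between the 2 genes.

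Within the modules of the processome, the differences varied in size between genes, which was not tested, and their order depended on the probe sets used. Of the UTP-A proteins, which bind the precursor first, Heatr1 differed by -4.28 ± 0.20 (adjusted p = 3.01e-07) from Mac1+ cells (by -1.35 when its 3 probe sets were averaged), Wdr75 by -4.16 ± 0.24 (adjusted p = 9.43e-07) and Utp15 by -3.89 ± 0.25 (adjusted p = 1.74e-06). Wdr43, of the same module, had 599.7, 234 and 209 in neutrophils, 3122, 1320.1 and 748 in Mac1+ cells and 1814, 2925 and 2885 in Mac1- cells, with arrays of the same population up to several-fold apart. Its difference of -2.18 ± 0.54 (adjusted p = 0.00889) was smaller than the -4.75 given by its other probe set, which read 14.7, 36.7 and 41.7 in neutrophils, 1219, 1306 and 1109 in Mac1+ cells and 2203, 2725 and 2369 in Mac1- cells. With probe sets averaged, Utp15 differed by -4.12, Wdr43 by -3.47 and Wdr75 by -2.52, so the order within this module changed. Of the UTP-B proteins beside Wdr36, Utp18 differed by -3.18 ± 0.18 (adjusted p = 9.17e-07) and Wdr3 by -1.75 ± 0.18 (adjusted p = 3.38e-05). Wdr3 had intensities of 806, 1061 and 1263 in neutrophils, 3209.7, 3595 and 3687 in Mac1+ cells and 4743, 4736 and 4655 in Mac1- cells. Rrp9, a protein of the U3 particle, differed by -2.34 ± 0.24 (adjusted p = 3.47e-05). Nop14 differed by -3.29 ± 0.17 (adjusted p = 5.74e-07), and its binding partners Noc4l and Emg1, a methyltransferase of ribosomal RNA, by -3.89 ± 0.31 (adjusted p = 6.76e-06) and -2.66 ± 0.14 (adjusted p = 5.28e-07). Bms1, a GTPase of the processome, differed by -2.12 ± 0.15 (adjusted p = 3.07e-06), and Ddx10, a helicase, by -3.72 ± 0.17 (adjusted p = 2.43e-07). All of these differences passed the test.

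The late small subunit factors act as the particle leaves the nucleus and matures. Tsr1, which resembles a GTPase and keeps the immature subunit from translating, had 42.3, 17.3 and 31.0 in neutrophils, 2208, 2526 and 2677 in Mac1+ cells and 4671, 5473 and 4938 in Mac1- cells. It was 55.1-fold lower in neutrophils than in Mac1+ cells, at -5.78 ± 0.21 (adjusted p = 9.42e-08), and 112-fold lower than in Mac1- cells, at -6.80 ± 0.21 (adjusted p = 3.04e-08). Rrp12, known in yeast as an export factor, had 6.02, 9.68 and 12.2 in neutrophils, 285, 404 and 440.0 in Mac1+ cells and 603, 669 and 560.4 in Mac1- cells, a difference of -3.94 ± 0.19 (adjusted p = 3.52e-07) from Mac1+ cells. Nob1, the nuclease that makes the final cut of the small subunit RNA, had 336, 82.6 and 88.6 in neutrophils, 2819, 1182 and 891 in Mac1+ cells and 1647, 2171 and 2303 in Mac1- cells. Its arrays varied widely within the neutrophils and within the Mac1+ cells, and both were highest on array 1; the difference was -3.24 ± 0.55 (adjusted p = 0.000949).

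The PeBoW complex, which is needed for the maturation of the large subunit RNA, fell in all 3 proteins. Wdr12 had 262, 143 and 109 in neutrophils, 2649.6, 2843 and 3109 in Mac1+ cells and 4204, 4004 and 3847 in Mac1- cells, a difference of -4.02 ± 0.26 (adjusted p = 2.01e-06) from Mac1+ cells. Its other probe sets gave -1.89 and 0.22, and averaging all 3 gave -1.90. Pes1, a partner, had 715, 387 and 310.2 in neutrophils, 2030.0, 2340.4 and 2311 in Mac1+ cells and 3120.2, 3069.8 and 3054 in Mac1- cells, a difference of -2.29 ± 0.27 (adjusted p = 8.8e-05). Bop1 had 255, 446 and 440.1 in neutrophils, 1566, 1782 and 1913 in Mac1+ cells and 2348, 2332 and 2290.3 in Mac1- cells, a difference of -2.20 ± 0.22 (adjusted p = 2.75e-05). In all 3 genes the 3 populations were apart.

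The other large subunit factors, 12 measured of 13, fell in both neutrophil comparisons, with a median of -3.74 against Mac1+ cells and -4.41 against Mac1- cells. Rrs1, known in yeast for placing the small RNA of the large subunit, had 109.8, 89.1 and 135 in neutrophils, 5182, 5757 and 5324 in Mac1+ cells and 5776, 6954 and 6363 in Mac1- cells, a difference of -5.43 ± 0.17 (adjusted p = 4.51e-08) from Mac1+ cells. Noc2l, known in yeast to escort early large subunit particles, had 21.3, 22.1 and 19.7 in neutrophils, 1240.4, 1606 and 1678 in Mac1+ cells and 2396, 2412 and 2186 in Mac1- cells, a difference of -5.35 ± 0.15 (adjusted p = 4.13e-08). Averaging all probe sets of Noc2l gave -3.50. Noc3l, whose yeast counterpart binds that of Noc2l, differed by -3.54 ± 0.28 (adjusted p = 7.11e-06). Nop16 differed by -4.33 ± 0.26 (adjusted p = 1.22e-06), Ddx18, a helicase, by -4.13 ± 0.33 (adjusted p = 7.03e-06), and Rrp1b by -4.04 ± 0.30 (adjusted p = 4.26e-06). Gnl3, nucleostemin, a GTPase known from dividing progenitor cells, had 228, 177 and 114 in neutrophils, 2554, 2908 and 2882 in Mac1+ cells and 5735, 5799 and 5350.3 in Mac1- cells. Its difference from Mac1+ cells was -3.93 ± 0.22 (adjusted p = 7.55e-07), while its relative Gnl2, also a GTPase, had 559, 1033 and 647 in neutrophils, 1633, 1915 and 2189.8 in Mac1+ cells and 2434, 1987 and 2125 in Mac1- cells, a difference of -1.38 ± 0.24 (adjusted p = 0.00101).

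Among the remaining large subunit factors, Nop2, a methyltransferase of ribosomal RNA, had 121, 206 and 161 in neutrophils, 560.1, 763 and 783 in Mac1+ cells and 1502, 1439 and 1318 in Mac1- cells. Its difference was -2.02 ± 0.21 (adjusted p = 4.17e-05) from Mac1+ cells and -3.03 ± 0.21 (adjusted p = 2.22e-06) from Mac1- cells. Nip7, which binds precursor RNA, differed by -2.69 ± 0.24 (adjusted p = 1.52e-05) from Mac1+ cells, and Nle1, known in yeast as the target of a remodelling ATPase, by -3.12 ± 0.28 (adjusted p = 1.55e-05). Ebna1bp2 (Ebp2 in yeast) had 531, 1013 and 841 in neutrophils, 2784, 3014 and 3043 in Mac1+ cells and 3041, 2733 and 2675 in Mac1- cells. It fell by 1.92 ± 0.22 against Mac1+ cells, and its Mac1+ and Mac1- arrays overlapped.

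**Figure D3:**
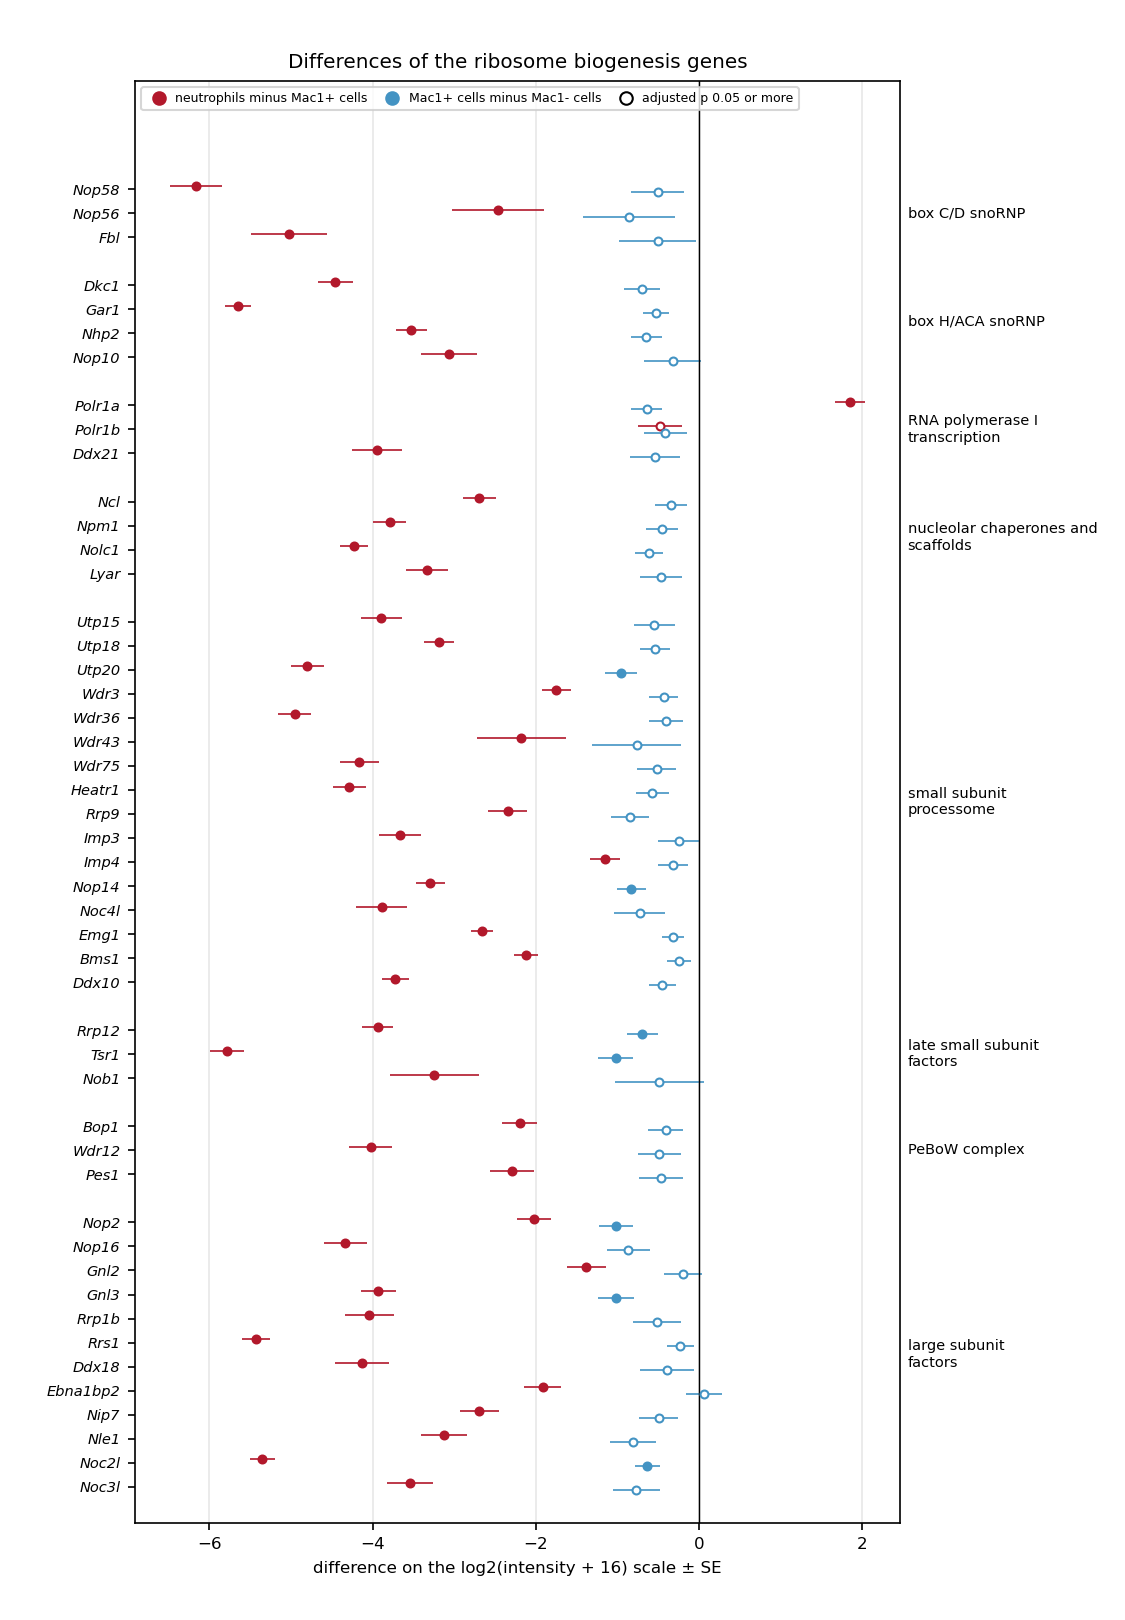
Differences of the 48 genes on the log2(intensity + 16) scale, neutrophils minus Mac1+ cells and Mac1+ cells minus Mac1- cells, with bars of 1 standard error and open points where the adjusted p was 0.05 or more. The neutrophil differences run to -6.16 and only Polr1a, at 1.85, is above 0, while the Mac1+ differences lie between -1.02 and 0.07.

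The c-kit+ populations differed far less. The median difference of Mac1+ cells from Mac1- cells was -0.51, which is 1.43-fold lower, where all genes had a median of -0.01. The sign was negative for 47 of 48 genes, and Ebna1bp2, at 0.07 ± 0.22 (adjusted p = 0.957), was the exception. All 3 Mac1+ arrays were below all 3 Mac1- arrays for 40 genes, as they were for 20.2% of all genes. The other 8, whose arrays overlapped, were Polr1b, Wdr43, Imp3, Bms1, Nob1, Gnl2, Rrp1b and Ebna1bp2. The test called 7 genes lower and none higher in Mac1+ cells with limma, against 5.60% of all genes lower and 6.31% higher. At an unadjusted p under 0.05 with limma, 23 genes were lower and 0 higher. Of all 18193 genes, 1911 were lower and 2057 higher at that threshold.

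The 7 genes, called by their brightest probe sets, came from both subunits. Tsr1 differed by -1.02 ± 0.21 (adjusted p = 0.0131) and was 2.03-fold lower in Mac1+ cells than in Mac1- cells, with the intensities given above for each array. Nop2 differed by -1.01 ± 0.21 (adjusted p = 0.0136) and Gnl3 by -1.01 ± 0.22 (adjusted p = 0.0163), both 2.02-fold lower. Utp20 differed by -0.96 ± 0.20 (adjusted p = 0.0141), Nop14 by -0.83 ± 0.17 (adjusted p = 0.0147), Rrp12 by -0.69 ± 0.19 (adjusted p = 0.0487) and Noc2l by -0.63 ± 0.15 (adjusted p = 0.0276). Nop14 had intensities of 341, 448 and 414 in Mac1+ cells and 672, 814 and 678 in Mac1- cells. Others reached similar sizes without passing the test. Nop16 differed by -0.87 ± 0.26 (adjusted p = 0.0686), with 817, 1048 and 1095 in Mac1+ cells and 1866, 1922 and 1622 in Mac1- cells, and Nop56 by -0.85 ± 0.56 (adjusted p = 0.494). Rrp9 differed by -0.84 ± 0.24 (adjusted p = 0.0533), with 283, 427 and 317 in Mac1+ cells and 694, 609 and 558 in Mac1- cells. Polr1a, the gene that was higher in neutrophils, differed by -0.64 ± 0.19 (adjusted p = 0.063).

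These calls depended on how the spread was estimated, which the neutrophil arrays share in a fit of all 9 arrays. With only Mac1+ and Mac1- cells in the fit, 36 of 48 genes were called lower in Mac1+ cells, where 12.4% of all genes were. Without neutrophil array 1, 27 were called lower, where 11.0% of all genes were. Without array 2 of the Mac1- cells, limma called none, although 15 were lower at an unadjusted p under 0.05. The share of all genes that was lower at that unadjusted threshold in this fit is not given here. The median difference changed little over the arrays left out, between -0.56 and -0.47. By role, the medians of Mac1+ minus Mac1- cells were -0.51 for the C/D proteins, -0.58 for the H/ACA proteins, -0.53 for the polymerase I group, -0.46 for the nucleolar chaperones, -0.53 for the processome, -0.69 for the late small subunit factors, -0.47 for PeBoW and -0.57 for the other large subunit factors.

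Other measures also moved between the c-kit+ populations. The summed intensity of 6 monocyte and macrophage markers was 2404 to 4072 in Mac1+ cells and 18998 to 20152 in Mac1- cells, with Csf1r at 485, 507 and 715 in Mac1+ cells and 8385, 8166 and 8797 in Mac1- cells. Neutrophils had a sum of 11695 to 17886, most of it Csf1r, at 12949, 7976 and 7112. The list was not uniform in neutrophils against Mac1- cells. Ly86, Ccr2 and Cx3cr1 were lower (-4.22, -2.94 and -2.25), Adgre1 and Cd68 were higher (0.79 and 1.37), and Csf1r did not pass the test (0.10). The ratio of the 3′ to the 5′ actin control probe sets, a measure of RNA quality and amplification, was 1.52 to 1.84 in neutrophils, 1.66 to 2.17 in Mac1+ cells and 2.17 to 2.49 in Mac1- cells. That of Gapdh was 2.06 to 2.70 in neutrophils, 2.08 to 2.47 in Mac1+ cells and 1.92 to 2.16 in Mac1- cells. Array 1 was the lowest Mac1+ array for 42 of the 48 genes, and for 7881 of all 18193 genes. The part of these measures, and of the B cell markers, in the differences was not tested.

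Neutrophil arrays varied more among themselves than the c-kit+ arrays. The median log2 level of the 48 genes was 7.55, 7.28 and 7.11 on the neutrophil arrays, 10.94, 11.02 and 11.07 on the Mac1+ arrays and 11.46, 11.47 and 11.43 on the Mac1- arrays. Array 1 was the highest neutrophil array for 22 of 48 genes (45.8%), against 49.7% of all genes. It was above the mean of arrays 2 and 3 by 2.27 for Nop56, 1.87 for Fbl, 1.80 for Nob1 and 1.43 for Nop10, and differed from it by -1.13 for Noc4l, -0.94 for Lyar and -0.90 for Utp15. Granule genes of promyelocytes were highest on the same array, with Mpo, myeloperoxidase, at 7132, 1712 and 778 and Elane, neutrophil elastase, at 2199, 451 and 208 in neutrophils, and Kit was lowest there. Without that array, 47 genes were lower in neutrophils than in Mac1+ cells and 1 was higher.

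The brightness of a probe set bore on the values. Beside the chosen ones there were 50, of 33 genes, and 40 of them had a mean intensity of 100 or more. Of these 40, 33 were lower and 3 higher in neutrophils than in Mac1+ cells, and all 3 higher ones belonged to Polr1a. The 4 that did not pass belonged to Wdr75, Bop1, Ddx18 and Nip7. Against Mac1- cells, 34 were lower and 3 higher in neutrophils. Between Mac1+ and Mac1- cells, 6 were lower and none higher, and the difference was negative for 39. Those 6 belonged to Dkc1, Ddx21, Nolc1 (-1.32), Wdr43 and Tsr1, of which only Tsr1 was called by its brightest probe set. The mean was taken over all arrays, so a probe set could reach 100 through the c-kit+ arrays alone. The counts of brighter probe sets, and their contrast with dimmer ones, are thus partly set by this split. The 10 dimmer probe sets did not follow the brighter ones. Against Mac1+ cells none of the 10 was lower in neutrophils with limma, 1 was higher (of Heatr1, by 1.06, adjusted p = 0.00234) and 9 did not pass, with 5 of the 10 differences negative. With all probe sets of a gene averaged, 46 genes still fell and Polr1a rose against Mac1+ cells, but the difference moved by over 1.5-fold for 17 of the 48. Averaging could change only the 33 genes with other probe sets. Beside Heatr1, Wdr12 and Noc2l, the averaged differences were -2.25 for Nop16, -2.52 for Wdr75, -1.81 for Utp18, -1.29 for Nip7, -0.85 for Bop1, -0.83 for Ebna1bp2, -2.47 for Ddx10 and -2.82 for Rrp1b. They were -2.65 for Noc3l, -3.38 for Ddx18, -3.51 for Nolc1 and -2.04 for Ncl. For Nop10 and Wdr43 averaging gave larger falls, of -3.74 and -3.47.

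A further 128 measured genes of ribosome biogenesis, from 5 lists of 132 genes, showed the direction of the 48. Against Mac1+ cells 112 fell and 1 rose in neutrophils, with a median difference of -2.36, where 28.5% of all genes fell and 20.0% rose. Against Mac1- cells 115 fell and 1 rose, with a median of -2.62, where 30.2% of all genes fell and 22.8% rose. Mac1+ cells were lower than Mac1- cells for 17 and higher for none, with a median of -0.34 and a negative sign for 113; 5.60% of all genes were lower. That count of 17 depended on the settings in the way described for the 48 genes, between 5 (without Mac1- array 2) and 55 (with only these populations in the fit). The largest falls against Mac1+ cells were those of Pa2g4, whose yeast relative helps to export the large subunit, Znhit6, which helps to assemble box C/D particles, and Nifk, which binds the proliferation antigen Ki-67. Pa2g4 had 31.4, 58.6 and 61.7 in neutrophils, 2575, 2642 and 2638 in Mac1+ cells and 4864, 5566 and 5076 in Mac1- cells, a difference of -5.34 ± 0.20 (adjusted p = 9.94e-08). Znhit6 had 16.3, 19.3 and 25.8 in neutrophils, 1127, 1361 and 1143 in Mac1+ cells and 1938, 2095 and 2091 in Mac1- cells, a difference of -5.08 ± 0.15 (adjusted p = 4.47e-08), and Nifk differed by -5.05 ± 0.32 (adjusted p = 1.56e-06). The 1 gene that rose was Utp14a, of the processome, with 3206, 2736 and 2465 in neutrophils, 1845, 2015 and 2202 in Mac1+ cells and 3244, 3041 and 2983 in Mac1- cells, a difference of 0.46 ± 0.15 (adjusted p = 0.0297) from Mac1+ cells.

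The lists differed in size of change. For the counts against Mac1+ cells that follow, 28.5% of all genes fell and 20.0% rose. The 9 measured genes of snoRNP assembly all fell against Mac1+ cells, with a median of -3.76. Of 45 other large subunit genes 39 fell (median -3.08), of 38 other small subunit genes 34 fell and 1 rose (median -1.76), and of 22 enzymes of RNA processing 20 fell (median -2.45). The smallest median was that of 14 other polymerase I genes, of which 10 fell and none rose, at -1.16. Within that list Polr1c differed by -4.23 ± 0.56 (adjusted p = 0.000194), Rrn3, which brings the polymerase to the promoter, by -3.77 ± 0.21 (adjusted p = 8.21e-07) and Polr1e by -3.73 ± 0.27 (adjusted p = 3.74e-06). Ubtf, the factor that organises active ribosomal RNA genes, had 2614, 2059 and 1998 in neutrophils, 2626, 2942 and 2989 in Mac1+ cells and 2857, 3301 and 2922 in Mac1- cells, and its difference of -0.37 ± 0.16 (adjusted p = 0.0825) from Mac1+ cells did not pass the test. Ubtf was chosen for mention after its values were seen. Ttf1, which ends polymerase I transcription, was the gene that rose against Mac1- cells, with 419, 684 and 621 in neutrophils, 352, 482 and 528 in Mac1+ cells and 359, 313 and 316 in Mac1- cells, a difference of 0.75 ± 0.22 (adjusted p = 0.0188).

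Between the c-kit+ populations the largest called differences on these lists were those of Rpp40, a protein of the RNases P and MRP, Pwp2, of the UTP-B module, and Ftsj3, a methyltransferase of large subunit particles. Rpp40 had 122, 38.0 and 41.9 in neutrophils, 108, 159 and 173 in Mac1+ cells and 437, 417 and 401 in Mac1- cells, and Mac1+ cells differed from Mac1- cells by -1.44 ± 0.34 (adjusted p = 0.0259). Pwp2 had 307, 432 and 541 in Mac1+ cells and 1052, 1180.4 and 941 in Mac1- cells, a difference of -1.31 ± 0.27 (adjusted p = 0.0141). Ftsj3 had 678, 802 and 868 in Mac1+ cells and 1711, 1925 and 1631 in Mac1- cells, a difference of -1.15 ± 0.15 (adjusted p = 0.00107). In each of the 3 genes the Mac1+ arrays were all below the Mac1- arrays.

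**Figure D4:**
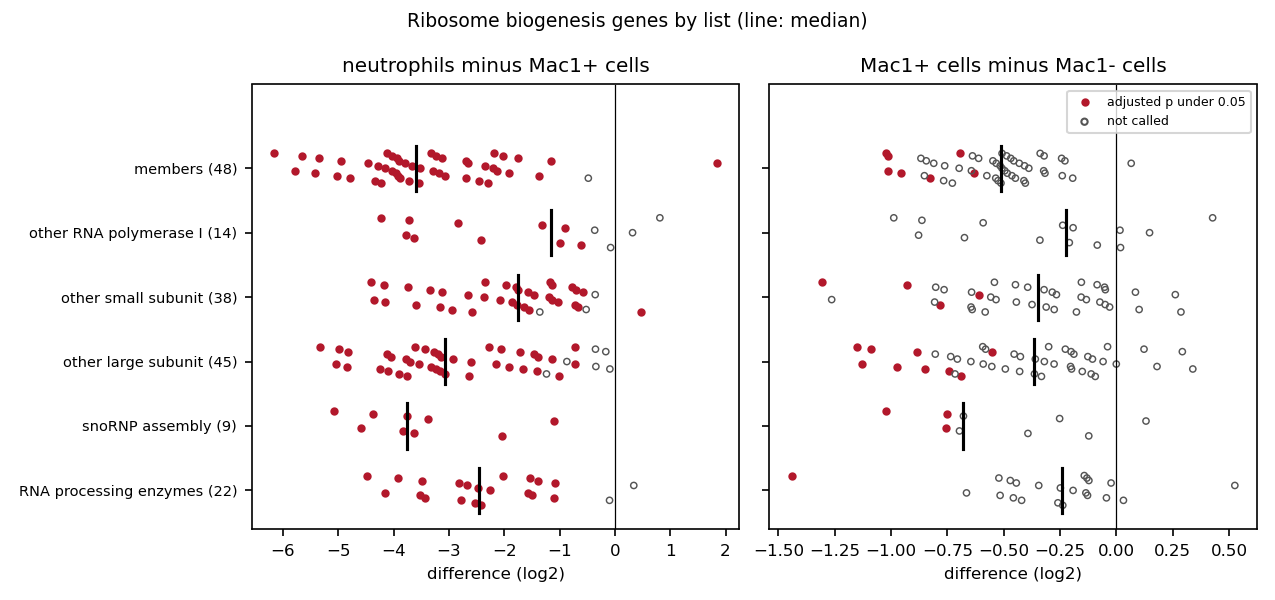
Difference of each gene on the log2(intensity + 16) scale for the 48 genes and the 5 further lists, neutrophils minus Mac1+ cells on the left and Mac1+ cells minus Mac1- cells on the right, with a line at each median and filled points at an adjusted p under 0.05. On the left the medians lie between -3.76 and -1.16, and on the right most points are below 0 and open.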

How the data were processed

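RNA of 3 sorted populations was amplified in 2 cycles, labelled with biotin and hybridised to 9 Affymetrix arrays, per the labels' protocols. The authors deposited 1 table of linear intensity values for 45101 probe sets. Their summarisation and scaling are not given in the sources used here, and no detection calls were used, so dim values near background have no floor of their own. The precision is limited by the number of arrays.

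Of the probe sets, 34945 name 1 gene, 932 several and 9160 none, and 64 are controls. The brightest probe set per gene was kept (18193 genes), and log2(intensity + 16) was fitted with limma 3.58.1 in R 4.3.3 as 1 model of all 9 arrays, with Benjamini-Hochberg adjustment over all genes and calls at an adjusted p under 0.05. The script was tested on simulated data. The members, lists and tests were chosen with earlier results of these data known. All members could be named, and of the further lists up to 3 called genes of each direction with the largest differences per comparison. The gene ID and symbol of 48 of 48 measured members matched the RefSeq gene table. The probe set of Mrto4 names several genes.

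Further fits used quantile normalization, a replicate block, centring, offsets of 1 and 64, leaving out the dimmest 40% of genes, averaging all probe sets of a gene, leaving out probe sets with the suffix x or s, a trended and robust variance prior, only the 2 populations compared, and each array left out in turn.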

Additional observations from a re-analysis of the deposited data

How the results depend on the processing

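In both comparisons with neutrophils the calls were stable. In 18 of 19 alternatives, 46 or 47 of the 48 genes were lower in neutrophils than in Mac1+ cells, and 46 or 47 lower than in Mac1- cells. Without probe sets of suffix x or s, 46 genes were measured (Gar1 and Tsr1 were not), and 44 were lower than in Mac1+ cells and 45 lower than in Mac1- cells. In all 19 Polr1a was the 1 higher gene. Only Polr1b changed its call there. It passed against Mac1+ cells with centring (-0.68, adjusted p = 0.0251) and without neutrophil array 1 (-0.78, adjusted p = 0.00768), and did not pass against Mac1- cells in 5 settings, at adjusted p-values of 0.0501 to 0.0903. The median difference of neutrophils from Mac1+ cells was -3.85 with an offset of 1, -3.10 with an offset of 64 and -3.18 when the probe sets of a gene were averaged, against -3.60 in the reported fit. From Mac1- cells it was -4.40, -3.55 and -3.75 under these settings, against -4.17. With 1 array left out these medians ranged from -3.70 to -3.50 and from -4.24 to -4.02. Centring each array on its median moved the median of all genes to -0.15 for neutrophils minus Mac1+ cells and to -0.11 for neutrophils minus Mac1- cells, against 0.05 in both. The medians of the 48 genes were then -3.80 and -4.33.

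Mac1+ against Mac1- cells is where the processing mattered. The 7 genes called lower became 14 with quantile normalization, 3 with an offset of 1, 21 with an offset of 64, 14 with dim genes left out, 12 when the probe sets of a gene were averaged, 11 with a trended and robust variance prior and 36 with only the 2 populations compared. With 1 array left out the count ranged from 0 to 27. The share of all genes called lower moved too. It was 5.60% in the reported fit, 12.4% with only the 2 populations compared and 11.0% without neutrophil array 1. For the other settings the share is not given here, so their counts do not separate these genes from a more permissive fit. The count of the 48 genes was 27 without neutrophil array 1 and 13 without neutrophil array 3. Without a Mac1+ array it was 1 (array 1), 3 (array 2) or 5 (array 3), and without a Mac1- array 2 (array 1), 0 (array 2) or 1 (array 3). At 0 calls by limma, 15 genes had an unadjusted p under 0.05, and the share of all genes at that threshold is not given here. No gene was called higher, nor had an unadjusted p under 0.05 in that direction, under any of these settings. The adjusted p ranged over the alternatives from 0.000744 to 0.0812 for Tsr1, from 0.0025 to 0.0603 for Nop2, from 0.000532 to 0.0695 for Gnl3 and from 0.0165 to 0.183 for Rrp12. The median of the 48 genes was -0.60 with quantile normalization, and from -0.56 to -0.47 with 1 array left out, against -0.51. Of the 128 further genes, 17 were lower, with 5 to 44 when 1 array was left out and 8 with an offset of 1, 34 with an offset of 64, 27 with dim genes left out and 55 with only the 2 populations compared. The difference of Ebna1bp2, which did not pass the test, was -0.030 with quantile normalization, against 0.07. The cause was not tested.

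With the number as a replicate block, 5 of the 48 genes and 10 of the 128 further genes were lower in Mac1+ than in Mac1- cells. The share of all genes called lower in that fit is not given here. The counts against neutrophils stayed at their reported values. Same-numbered arrays correlated in their deviations by -0.30 to 0.13, and in 5 of 18 cases an array correlated best with its own number in another population, so the numbers were not taken as pairs.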
